A study of Mus musculus with 2 samples.

Results

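The proteasome subunit genes are the protein-coding genes of the mm10 mouse annotation (GENCODE release 21) whose symbol begins with Psma, Psmb, Psmc, Psmd, Psme, Psmf or Psmg followed by a number. The rule found 50 genes among 21911 protein-coding symbols, and all 50 had the start of a coding transcript. It takes in Psmc3ip, a meiotic recombination factor named for its binding to Psmc3 and not a subunit. It leaves out the subunits Adrm1 and Sem1, whose symbols differ. The members were described by their chromatin in DNase-seq, an assay that maps accessible DNA by where the nuclease DNase I cuts it in nuclei.

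The tissue was the gastrocnemius, the large muscle of the calf, of female B6CASTF1/J mice aged 14 days, which are the F1 cross of C57BL/6J and CAST/EiJ mice. The design had 1 group of 2 biological replicates, with no second condition, so differences between genes carry no test over samples. The label of each biosample names 3 females, so that animals may have been pooled, and both biosamples carry the same donor record. Replicate 2 is labelled with a pair of sequencing instruments and replicate 1 with none, so any effect of the instrument cannot be told apart from the replicate. In whole tissue, a promoter open in fewer cells and a promoter less open in each cell cannot be told apart.

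The proteasome degrades proteins that carry ubiquitin chains. Its barrel-shaped core particle has outer alpha rings, which gate the channel, and inner beta rings, which hold the proteolytic sites. The regulatory particle caps the barrel with a base of ATPases that unfold substrates and a lid that removes ubiquitin. In cells exposed to interferon gamma, the immune catalytic subunits Psmb8, Psmb9 and Psmb10 take the places of Psmb5, Psmb6 and Psmb7, and the activator made of Psme1 and Psme2 is induced. In skeletal muscle this system breaks down contractile proteins, and it is known for its part in atrophy.

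Promoters of the proteasome genes were open almost throughout. A promoter site is a merged peak of the strict lists that holds a peak of each replicate and has its midpoint within 1000 bp of a coding start. Such a site was present at 46 of the 50 members (92.0%, Wilson 95% interval 81.2 to 96.9%, counting error over genes only), where 62.6% of all 21829 protein-coding genes with a coding start had one. The same 46 members had a promoter peak in replicate 1 and in replicate 2. The 4 without a shared site were Psma8, Psmb11, Psme2b and Psmb10. Every gene of the ordinary core particle, the base and the lid had one. The deposited lists held 87558 strict peaks in replicate 1 and 79562 in replicate 2. Read totals were not used here.

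The promoter signal of a gene is the authors' signal value of its strongest promoter peak, whose scaling is not stated. Values below are for replicate 1 and then replicate 2. Over the 46 members the median signal was 12.4 and 10.2, against 8.0 and 7.23 over the 13649 genes that had a shared promoter site (an open promoter) and a signal in each replicate. Of the members, 34 lay above the median of all open promoters and 12 below it. The median member stood at percentile 67.5 of the open promoters. By mean signal 14 of the 50 members were in the top 25% of open promoters, where 15.6% of all protein-coding genes with a coding start were. These 14 are 30.4% of the open members, close to the 25% that the threshold sets for open promoters. The lowest signal of a member was 3.89 and 3.65 and the highest 23.7 and 18.5. All open promoters ran from 0.170 and 0.179 to 65.2 and 55.2, but a range widens with the number of genes. The lower and upper quartiles of mean signal were 7.57 and 14.59 in the members and 3.44 and 13.26 in all open promoters. The standard deviations were 4.39 and 6.85. Genes with a symbol of Rpl or Rps plus a number, listed as cytosolic ribosomal protein genes, had medians of 11.9 and 10.4 over 88 open promoters of 98 genes. Those with Mrpl or Mrps plus a number, listed as mitochondrial ribosomal protein genes, had medians of 9.57 and 8.51 over 78 of 78. Both lists were made by symbol alone, so they may hold genes for other proteins.

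**Figure D1:**
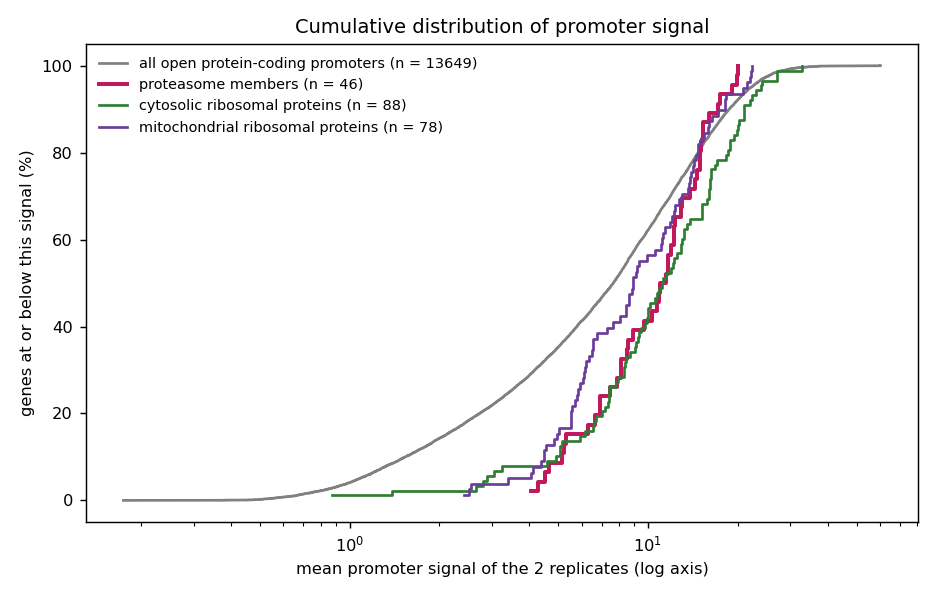
Cumulative share of genes (y axis, %) by mean promoter signal of the 2 replicates (x axis, log scale) for all open promoters with a signal in each replicate (13649), the 46 proteasome members, and cytosolic and mitochondrial ribosomal protein genes. The ribosomal lists were made by symbol alone. The curve of the members starts at a mean signal of 4.07, where 29.2% of all open promoters already lie at or below it.

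The alpha ring genes, whose proteins form the gate of the core particle, lay in a narrow band. All 7 were open, all 7 had a mean signal above the median of open promoters, and their medians were 12.4 and 10.1. Psma1 was the highest of them with 15.6 and 11.9. Psma3 was the lowest with 9.11 and 7.13, the second of which is just under the median of open promoters in replicate 2. The other 5 lay between them, among them Psma2 with 12.7 and 11.7, Psma4 with 13.3 and 10.1 and Psma7 with 10.03 and 7.85.

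The beta ring genes without a catalytic site spanned nearly the whole range of the family. Psmb3 had the highest signal of any member in replicate 1, 23.7, and 15.9 in replicate 2. Psmb2 had 17.9 and 16.5. Psmb1 had 16.9 and 15.1, but this peak lay 1562 bp upstream of the reference start, near an alternative coding start and at the promoter of Tbp, the TATA-binding protein gene. The peak at the reference start of Psmb1 itself had 12.4 and 10.8. Psmb4 stood apart with 5.79 and 4.82, below the median of open promoters in both replicates.

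The standard catalytic subunits, which carry the 3 proteolytic activities of the particle, had lower signals than most other core genes. Psmb5, the chymotrypsin-like subunit, had 6.82 and 5.80. Psmb6, the caspase-like subunit, had 8.36 and 6.59. Psmb7, the trypsin-like subunit, had 9.54 and 7.60. Only Psmb7 lay above the median of open promoters by mean signal, and none of the 3 was in the top 25%.

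**Figure D2:**
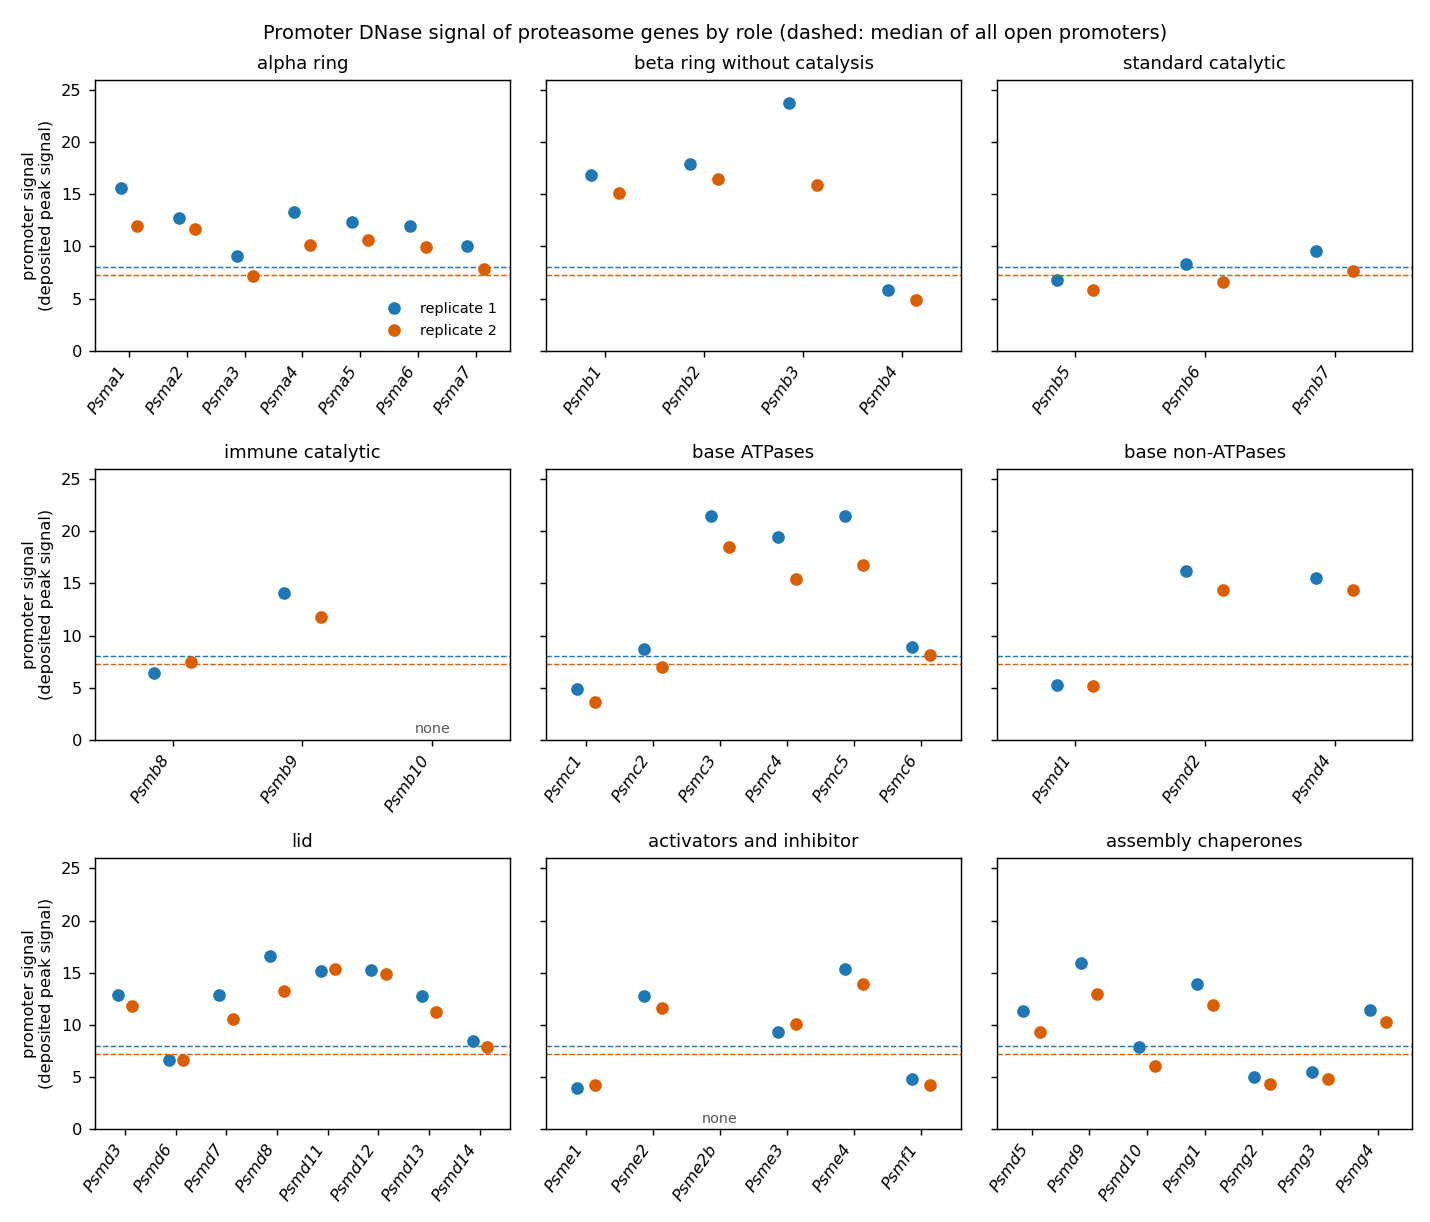
Promoter signal (y axis, deposited peak signal) of members in replicate 1 (blue) and replicate 2 (orange), in 9 panels by role. Psma8, Psmb11 and Psmc3ip are not drawn. The median of all open promoters of each replicate is a dashed line, and "none" stands where no strict promoter peak was listed. The alpha ring genes sit above the dashed lines except Psma3 in replicate 2, whereas the beta ring, the base and the activators each hold genes above 15 and genes near 5 or below.

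Among the immune catalytic subunits 2 of 3 had an open promoter. Psmb9 had 14.1 and 11.8, above all 3 standard catalytic genes in both replicates. Psmb8 had 6.37 and 7.44, below all 3 standard catalytic genes in replicate 1 and between Psmb6 and Psmb7 in replicate 2. Psmb10 had no strict peak within 1000 bp of its coding start in either replicate. The log2 ratio of Psmb6 to Psmb9 was -0.76 in replicate 1 and -0.84 in replicate 2, so the immune member of that pair was higher in each. This rests on the strongest site of Psmb9, which is also a promoter site of Tap1. The site at the reference start of Psmb9, also a promoter site of Tap1, had 2.53 and 2.67, below Psmb6. The log2 ratio of Psmb5 to Psmb8 was 0.10 and -0.36, so its sign differed between the replicates.

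Core genes and immune genes as groups differed by less than the genes within each. The median log2 signal of the 14 core genes (Psma1 to Psma7 and Psmb1 to Psmb7) exceeded that of the 4 open immune genes (Psmb8, Psmb9, Psme1 and Psme2) by 0.43 in replicate 1 and 0.11 in replicate 2. The core genes ran from 5.79 to 23.7 and from 4.82 to 16.5, and the immune genes from 3.89 to 14.1 and from 4.25 to 11.8. The ranges of the groups overlapped in both replicates. The difference became 0.68 (mean of the replicates) where Psmb10 was given the site inside its gene, by a window of 2500 bp or by the starts of all its transcripts.

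The sites of 3 catalytic genes are printed, without transcribed leader sequence beyond 30 bases, to show where footprints fall, with the bases that lie in footprints of both replicates in capitals. A footprint is a short stretch of fewer cuts inside an open site, called by the authors at a false discovery rate of 0.01, where a bound protein may shield the DNA. The stretches are from the mm10 genome in the direction of the gene: chr14:54617993-54618120 on the minus strand for Psmb5, chr11:70525261-70525415 on the plus strand for Psmb6, and chr17:34197581-34197750 on the plus strand for Psmb8.
Psmb5: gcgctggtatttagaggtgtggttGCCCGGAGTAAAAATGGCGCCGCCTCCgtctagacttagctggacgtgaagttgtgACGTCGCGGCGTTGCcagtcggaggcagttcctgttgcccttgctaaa
Psmb6: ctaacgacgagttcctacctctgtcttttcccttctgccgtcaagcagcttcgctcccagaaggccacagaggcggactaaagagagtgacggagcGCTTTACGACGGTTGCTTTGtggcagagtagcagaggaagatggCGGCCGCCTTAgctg
Psmb8: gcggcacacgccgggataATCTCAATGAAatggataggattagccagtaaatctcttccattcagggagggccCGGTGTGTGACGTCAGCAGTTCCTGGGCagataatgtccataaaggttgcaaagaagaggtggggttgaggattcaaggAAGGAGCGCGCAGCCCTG
The site of Psmb5 had 3 footprints in each replicate, and 42 of the 128 bases shown lie in footprints of both. Psmb6 had 2 in replicate 1 and 5 in replicate 2, and 31 of its 155 bases are in capitals. Psmb8 had 3 and 5, and 57 of its 170 bases are in capitals. The middle block of Psmb8 holds TGACGTCA, the palindrome bound by CREB and ATF factors.

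Psmb9 and Tap1 shared their strongest site. Tap1 encodes a subunit of the transporter that carries the peptides made by the proteasome to class I molecules, and it is transcribed from the other strand. The site, chr17:34187321-34187520, lay 344 bp inside the reference model of Psmb9, in an untranslated exon, and 90 bp upstream of the RefSeq start of Psmb9 at 34187330. The shared site was the strongest promoter site of both genes, and its signal cannot be divided between them.

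Psmb10 was open inside the gene and not at its coding start. With the starts of all annotated transcripts, the site inside the gene counted as a promoter site of Psmb10. Its reference start is chr8:105938444 on the minus strand. No base within 500 bp of it was listed with a low false discovery rate for the local cut rate (below 0.05) in either replicate. A shared site with signals of 5.65 and 6.61 lay at chr8:105936981-105937220, in an intron 1.34 kb after that start, with 3 footprints in replicate 1 and 4 in replicate 2. Those signals are below Psmb7 (9.54 and 7.60) by 0.76 and 0.20 on the log2 scale. The 300 bp around the annotated start had 46.3% GC and a ratio of observed to expected CpG of 0.249, where the medians of open promoters were 60.7% and 0.75.
Psmb10: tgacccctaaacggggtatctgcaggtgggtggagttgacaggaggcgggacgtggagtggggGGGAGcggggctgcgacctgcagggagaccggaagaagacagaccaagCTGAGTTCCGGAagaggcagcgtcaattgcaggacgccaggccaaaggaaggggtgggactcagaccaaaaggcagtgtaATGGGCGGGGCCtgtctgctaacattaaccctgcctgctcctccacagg
The intronic site is shown because it is the only shared site assigned to this gene. It was chosen after its values were seen. It is from mm10 on the minus strand, with the bases in footprints of both replicates in capitals. It held 2 matches to the ETS motif CCGGAAG on either strand and 1 to the SP/KLF box GGGCGG, of which 1 and 1 overlapped a footprint of both replicates.

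**Figure D3:**
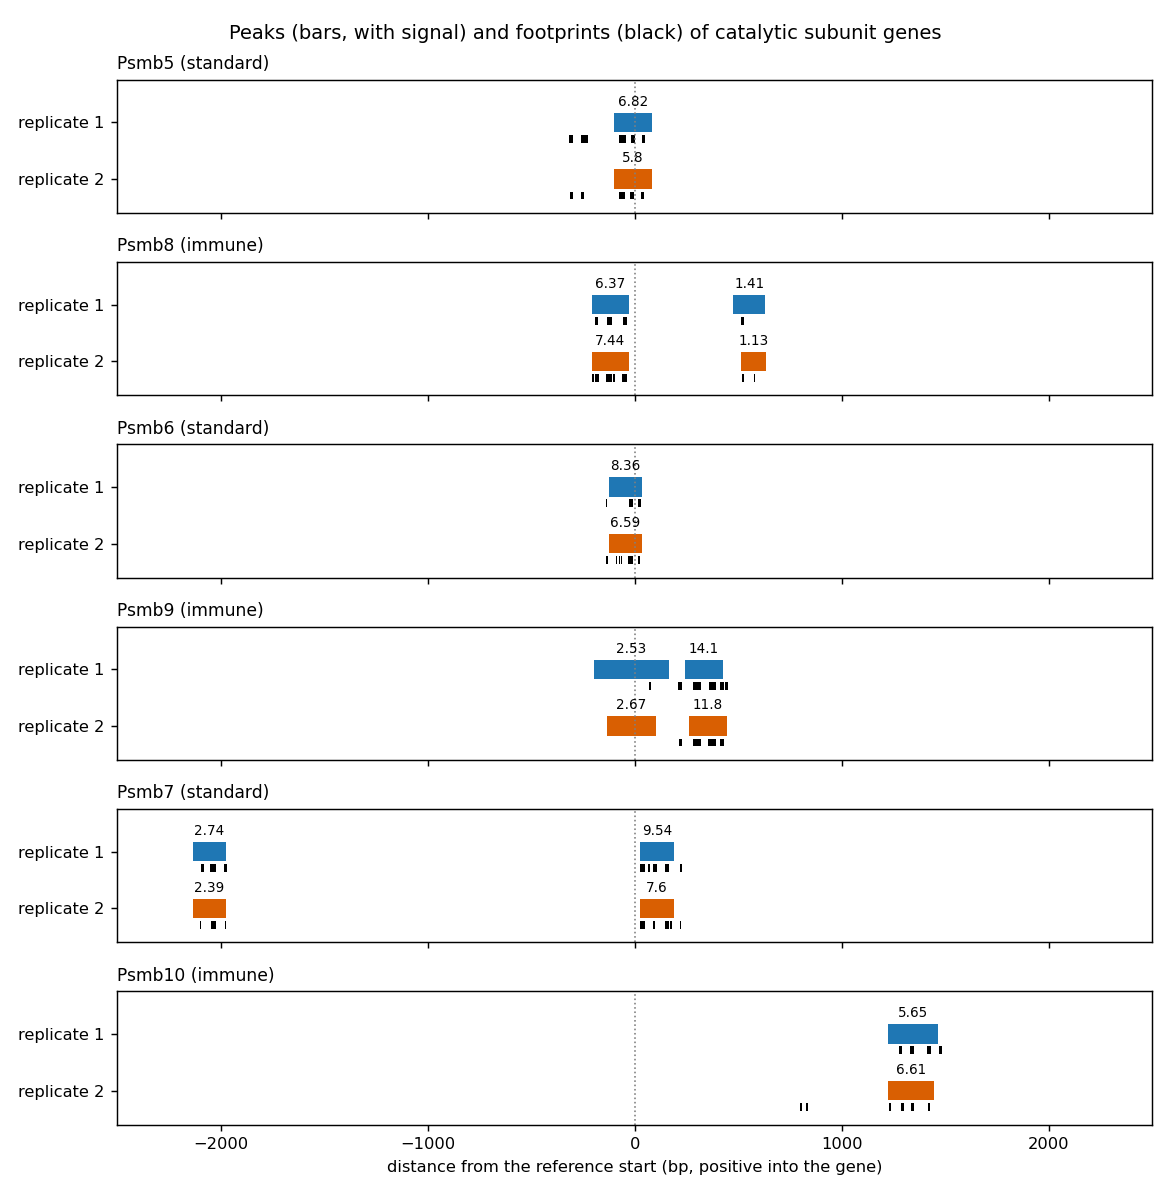
Strict peaks (coloured bars, with their signal) and footprints (black) of replicate 1 and replicate 2 by distance from the reference start (x axis, bp) for the 3 standard and 3 immune catalytic genes. Psmb5, Psmb6 and Psmb8 have a peak at or just before the start, the strongest peak of Psmb9 lies after it, and Psmb10 has its only strict peaks about 1344 bp into the gene.

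The markers of immune cells were mostly closed in the same libraries. Of 10 leukocyte and macrophage markers only Spi1 had a shared promoter site (1.82 and 1.69). Among the others, no strict promoter peak was listed at Ptprc, Cd68, Csf1r, Adgre1, Itgam, Lyz2, Cd3e or Cd74. All 10 muscle fibre markers were open, with signals from 3.32 to 13.1 in replicate 1 and from 2.59 to 10.1 in replicate 2, among them Acta1, Ckm and Myod1. Of the endothelial markers 4 of 5 were open at low signal (0.841 to 2.60 and 0.744 to 2.19), and of the fibroblast markers 3 of 4, with Col1a1 at 8.16 and 9.35, Pdgfra at 5.29 and 5.52, Dcn at 1.72 and 1.38 and no shared site at Pi16. The part of these other cells in the values of the immune genes was not tested.

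The genes of antigen processing around the immune subunits were open too. All 9 listed genes had a shared site, with medians of 8.57 and 6.85. Tapbp, the chaperone that links the transporter to class I molecules, was highest in replicate 1 with 16.8 and had 11.8 in replicate 2. Irf1, an interferon-induced transcription factor, had 12.9 and 11.9. Nlrc5, the activator of class I genes, was lowest with 1.82 and 2.22.

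The base ATPases form the ring that unfolds substrates, and their genes spanned most of the range of the family. Psmc3 had the highest mean signal of all members, with 21.5 and 18.5. Psmc5 had 21.5 and 16.8, and Psmc4 had 19.4 and 15.4. These 3 were in the top 25% of open promoters. Psmc6 had 8.94 and 8.10. Psmc2 had 8.73 and 7.01. Psmc1 was the lowest member in replicate 2, with 4.90 and 3.65.

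The other base genes also differed from each other. Psmd2, a large scaffold of the base, had 16.2 and 14.3, and the ubiquitin receptor Psmd4 had 15.5 and 14.3. Psmd1, the companion scaffold of Psmd2, had 5.30 and 5.15. Its strongest site lay 258 bp upstream of the start, and a second one at the start had 5.00 and 4.43.

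All 8 genes of the lid were open and 7 of them lay above the median of open promoters. Psmd11, a scaffold protein of the lid, was highest by mean signal with 15.2 and 15.4. Psmd6 was lowest with 6.60 and 6.65. Psmd14, the enzyme that removes ubiquitin chains, had 8.44 and 7.82, near the median of open promoters. The other 5 lay between 12.7 and 16.6 in replicate 1 and between 10.51 and 14.8 in replicate 2. The peaks of Psmd13 differed between replicates: its strongest peak in replicate 1 (12.7) lay 372 bp after the start and that in replicate 2 (11.2) just before it, and both sites were open in both replicates.

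The activators and the inhibitor differed widely. Psme1 had the lowest mean signal of the open members, with 3.89 and 4.25. Psme2, its partner in the interferon-induced activator, had 12.8 and 11.6, from 2 neighbouring peaks of nearly equal signal, the upstream one being the stronger in replicate 1. The signals of these 2 partners did not overlap. Psme3, the nuclear activator, had 9.26 and 10.1. Psme4, a large single-chain activator, had 15.3 and 13.9. Psmf1, which inhibits the core particle in vitro, had 4.83 and 4.23. Psme2b, an annotated copy of Psme2 on chromosome 11, had no strict or permissive peak, and no base with a low false discovery rate lay within 500 bp of its start.

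Assembly chaperones hold partial rings and base modules together until the particle is complete. All 7 genes were open. Psmd9 was the highest with 16.0 and 12.9. Psmg2 was the lowest with 4.98 and 4.35. Psmg3 was close to it with 5.47 and 4.81, whereas Psmg1, the partner of Psmg2, had 13.9 and 11.9. Psmd10 had 7.83 and 6.00, Psmd5 had 11.3 and 9.35 and Psmg4 had 11.4 and 10.3. The gene matched by symbol only, Psmc3ip, had 12.5 and 8.95.

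The tissue-restricted members were closed. Psma8, the alpha subunit of the testis, had no strict peak and a permissive peak of 0.276 and 0.346. Psmb11, the beta subunit of the thymus cortex, had no peak on either list. Around the start of Psma8 134 and 51 bases within 500 bp had a low false discovery rate, and around that of Psmb11 none had. Psma8 had a CpG ratio of 0.764, near that of the open members (median 0.789), and Psmb11 had 0.165. Of the germ line and thymus markers Ddx4, Sycp1 and Foxn1 had no strict promoter peak and Dazl had 11.2 and 9.41, so an open promoter at a germ line gene was found elsewhere in these libraries.

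Open sites sat close to the starts. The midpoint of the strongest shared site lay a median of 34 bp from the nearest coding start, and within 100 bp of it for 39 of 46 members. The sites were 160 to 300 bp wide, with a median of 200 bp. By the annotation 25 midpoints were upstream of the gene, 18 in an untranslated exon, 2 in an intron and 1 in a coding exon. More than 1 shared promoter site was present at 24 of the 46 members, against 50.9% of all open promoters. Psma7 had the most with 4. Within 500 bp of the reference start, a median of 707.5 and 704.5 bases had a low false discovery rate in the members, against 483 and 480 over all protein-coding genes and 726 and 722 over open promoters. The 300 bp around the start of open members had a median GC content of 58% and a CpG ratio of 0.789, close to the medians of open promoters.

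Each of the 46 sites held at least 1 footprint of both replicates, where 97.5% of all open promoters did. The median number was 3.5 in the members and 3 in all open promoters. Psmg1 had 8 shared footprints, with 8 in replicate 1 and 7 in replicate 2. Psmc4 had 7, and Psma2, Psmd2 and Psmd8 had 6 each. Psme1, the member of lowest signal, had 1. Across the 46 members the rank correlation of mean signal with the number of shared footprints was 0.363, and across 13649 open promoters it was 0.608; signal and footprints come from the same cuts, so this is a description only.

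The Psmg1 site up to 30 bases after the start, chr16:95990931-95991060 on the minus strand of mm10, is shown as the member with the most footprints. Capitals mark the 61 of 130 bases in footprints of both replicates.
Psmg1: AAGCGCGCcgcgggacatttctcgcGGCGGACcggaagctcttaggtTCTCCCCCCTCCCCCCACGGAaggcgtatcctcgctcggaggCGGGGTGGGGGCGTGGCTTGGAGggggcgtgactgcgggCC

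For 16 motifs, exact matches to their letters on both strands were counted from 250 bp before to 50 bp after the reference start, each motif on its own, so matches to different motifs may overlap. The ETS motif CCGGAAG stood farthest from open promoters in percentage points, though not as a ratio: 18 of 50 members held it (36.0%), against 11.2% of all protein-coding genes and 16.3% of those with a shared promoter site. Within 150 bp around the midpoint of the site, 16 of 46 open members held it (34.8%), against 13.8%. The lists by symbol of mitochondrial and cytosolic ribosomal protein genes had it at 37.2% and 24.5%. Its distribution within the particle was uneven: 10 of 17 genes of the base and lid held it, and 1 of the 14 core genes, Psma6. None of the 5 immune genes held it in this window, which misses the strongest site of Psmb9 and the intronic site of Psmb10. The latter site held 2 matches.

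Of 23 ETS matches inside the promoter sites 14 overlapped a footprint of both replicates, in 12 members, and 53.97% of such matches in all open promoter sites did. Of these, 6 are shown, as the motif with the widest gap in percentage points, with the motif in capitals and its surroundings in lower case, read on the strand of the motif: chr8:107588440-107588464 for Psmd7, chr14:14120975-14120999 for Psmd6, chr12:100110165-100110189 for Psmc1, chr14:45329715-45329739 for Psmc6, chr11:30771713-30771737 for Psme4, and chr12:55398814-55398838 for Psma6.
Psmd7: gcggtcaaaCCGGAAGgggaggtgc
Psmd6: gagacgcgaCCGGAAGtcagactgg
Psmc1: tcgccaccgCCGGAAGtgcatccac
Psmc6: gcgggccagCCGGAAGgggcggagc
Psme4: ggccccgccCCGGAAGtgacttgag
Psma6: gccggtgctCCGGAAGcagtagcca
The centres of these 6 matches lay within 100 bp of the reference start. A match describes letters only and not a bound factor.

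**Figure D4:**
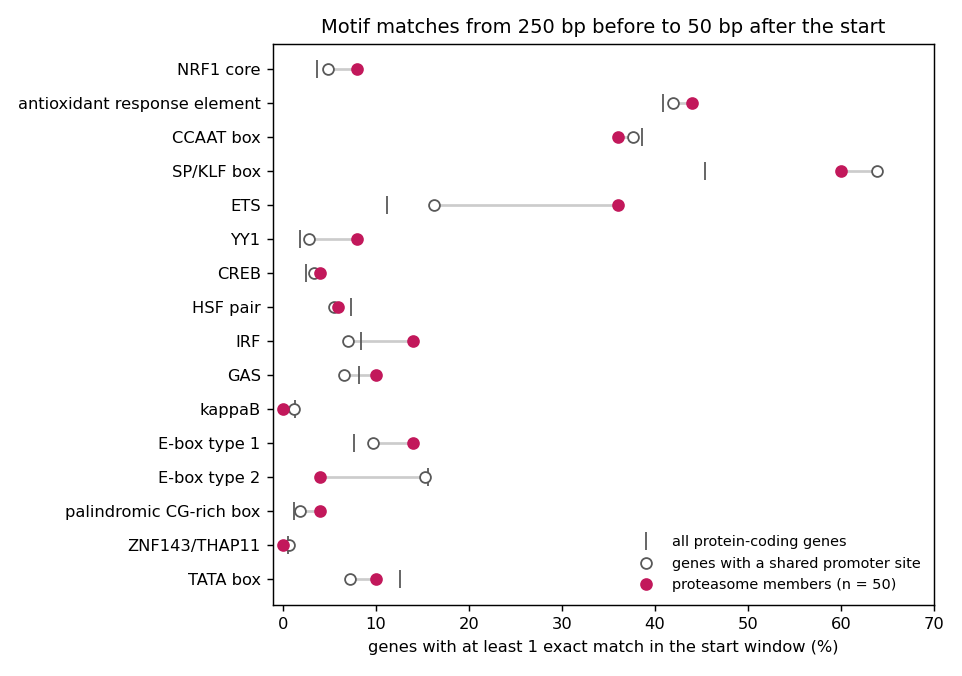
Share of genes (x axis, %) with at least 1 exact match to each of 16 motifs from 250 bp before to 50 bp after the start, for the 50 members (filled), genes with a shared promoter site (open circles) and all protein-coding genes (ticks); E-box type 1 and type 2 are CACGTG and CAGCTG. The ETS motif is at 36.0% in the members and 16.3% in open promoters, and the E-box of type 2 at 4% and 15.3%.

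Other motifs were closer to the background of open promoters. The SP/KLF box GGGCGG was found at 30 members (60.0%), against 63.9% of open promoters and 45.4% of all genes. The CCAAT box, bound by NF-Y, was found at 18 members (36.0%), against 37.6% and 38.6%. The antioxidant response element TGANNNNGC, read by Nfe2l1, the factor that raises proteasome transcription when the particle is inhibited, was found at 22 members (44.0%), against 41.9% and 40.9%. Its letters are few and its background is high. It was uneven within the particle, at 10 of the 14 core genes (71.4%) and 4 of the 17 genes of the base and lid (23.5%). Within 150 bp around the sites it was at 18 of 46 open members (39.1%), against 26% of open promoters. In the sites, 42 of 52 SP/KLF matches of the members overlapped a footprint of both replicates (80.8%, against 64.3% over all open promoter sites), and 18 of 30 antioxidant matches did (60%, against 43.2%).

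The E-box CAGCTG of the muscle factors MyoD and myogenin was found at only 2 members, Psmd3 and Psmd4 (4%), against 15.3% of open promoters. The IRF motif GAAANNGAA was at 7 members (14.0%), against 6.99% of open promoters. No immune subunit held it in this window, which misses the strongest site of Psmb9 and the intronic site of Psmb10. Psme1 had a match to the IRF motif inside its promoter site beyond the window. Within 150 bp around the sites it was at 5 of 46 open members (10.9%), against 2.02%. The STAT motif TTCNNNGAA was at 5 members (10%), among them Psmb8, against 6.59% of open promoters. Around the sites it was at 3 open members (6.52%), against 2.72%. The kappaB motif GGANTTTCC and the ZNF143/THAP11 motif ACTACAATT were at none, and only 1.2% and 0.74% of open promoters hold them. The E-box CACGTG was at 7 members (14% against 9.7%), the TATA box TATAAA at 5 (10% against 7.26%), the heat-shock factor pair GAANNTTC at 3 (6% against 5.52%) and the palindrome CTCGCGAG at 2 (4% against 1.82%). Over the 46 open members alone, the shares of these last motifs were 10.9%, 8.7%, 6.52% and 4.35%. Few members held each of these motifs, and no difference from open promoters was tested.

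Rarer motifs marked a few members. GCATGCGC, the core of the motif of nuclear respiratory factor 1, which is another protein than Nfe2l1, was in the windows of Psma2, Psmc3, Psmc5 and Psmg1, or 8% against 4.93% of open promoters. The YY1 motif AAGATGGCG was in those of Psmb6, Psmc5, Psmd7 and Psmd11 (8% against 2.84%), and the CREB motif TGACGTCA in those of Psmb2 and Psmb8 (4% against 3.35%). Examples that overlap footprints of both replicates follow, first the nuclear respiratory factor 1 motif of Psma2 (chr13:14613087-14613112) and Psmg1 (chr16:95990911-95990936), then the YY1 motif of Psmd7 (chr8:107588520-107588544) and Psmc5 (chr11:106256180-106256204), and last the CREB motif of Psmb2 (chr4:126677598-126677623).
Psma2: tcgctcagaGCATGCGCaggcccctc
Psmg1: ccagacagcGCATGCGCgccggcccg
Psmd7: cctttctcAAGATGGCGcccctggc
Psmc5: agagagggAAGATGGCGcttgatgg
Psmb2: cgcgagaggTGACGTCAttgggccgc
The nuclear respiratory factor motif can overlap itself on the other strand, so that its 7 matches in promoter sites count some places more than once. Of these 7, 5 overlapped a footprint of both replicates (71.4%), against 90.3% over all open promoter sites. All 3 YY1 matches and all 2 CREB matches in the sites did, against 58.5% and 91.6%.

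Some members had a neighbouring start on the other strand. A gene on the other strand with a start within 1000 bp of the reference start was present at 10 members (20%). The share was 9.09% over all protein-coding genes with a coding start, closed ones included, and none was computed over open promoters alone. The mitochondrial and cytosolic ribosomal lists had 34.6% and 12.2%, and the other genes of the ubiquitin-proteasome pathway 22.2%. Dnajc2 began 32 bp upstream of Psmc2, Mrpl32 75 bp upstream of Psma2, Ftsj3 75 bp upstream of Psmc5 and Ss18l1 76 bp upstream of Psma7. Atg4a began 218 bp upstream of Psmd10, Cep76 263 bp upstream of Psmg2 and Rnf31 621 bp upstream of Psme2. The starts of AY074887, Tap1 and Sirt3 lay inside Psma4, Psmb9 and Psmd13, at 208, 211 and 341 bp. At all 10 the strongest site was also a promoter site of the neighbour, so its signal was counted for both genes. Neighbours and promoter sites were both defined by a limit of 1000 bp, so such sharing was largely set in advance. The site of Psmb1 was likewise shared with Tbp, and that of Psmg3 with Gm26938, which makes 12 members in all.

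Distal sites were about as common at the members as at other genes. A distal site is a shared site farther than 1000 bp from every coding start and nearest to the gene within 50 kb. At least 1 was assigned to 24 of 50 members (48.0%), against 50.6% of all protein-coding genes. The means were 1.24 in the members and 1.45 over all genes. The median was 0 in the members and 1 over all genes, but the members' median was 1 without replicate 1, without replicate 2 and with the permissive list. The median over all genes is not given for those settings, so the members' value there has no like comparison. Psmc1 had the most with 8, of which the strongest, in its own intron 12.9 kb after the start, had 5.38 and 3.42 and exceeded the promoter of Psmc1 in replicate 1. Psma3 had 6, of which 5 lay 4.66 to 6.35 kb upstream. Psmg4 had 6 as well. The strongest distal sites of the family were near Psmd1, 5.02 kb upstream, with 10.2 and 8.35, and in a coding exon of Psmc2, 1.44 kb after the start, with 9.27 and 8.07. Nearness does not show which gene a site acts on.

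The replicates ordered the members alike. The rank correlation of log2 signal between the replicates was 0.972 over the 46 members and 0.991 over 13649 open promoters, and these genes share both libraries. Replicate 1 was higher at 41 members and replicate 2 at 5. The median log2 ratio of replicate 2 to replicate 1 over all open promoters was -0.17, and relative to it 29 members were lower in replicate 2 and 17 higher. Relative to that median Psmb8 stood highest, at 0.39, which is percentile 94.4 of open promoters. Psme1 and Psme3 followed at 0.29 each. Psmb3 was lowest at -0.41, percentile 1.45, followed by Psmc3ip at -0.32 and Psmc1 at -0.26. The intronic site of Psmb10 stood at 0.39, while Psmb9 stood at -0.09 and Psme2 at 0.02, so the immune genes did not move together. Among the antigen-processing genes Tap2 stood at 0.40 and Nlrc5 at 0.46, and Tapbp at -0.34. The only open leukocyte marker, Spi1, stood at 0.06. Of the open fibroblast markers Col1a1 stood at 0.36, Pdgfra at 0.23 and Dcn at -0.15. The muscle fibre markers had a median of -0.12, with 7 of 10 below 0, and the 4 open endothelial markers a median of -0.14, with all 4 below 0. The part of these cell types in the values of the members was not tested.

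**Figure D5:**
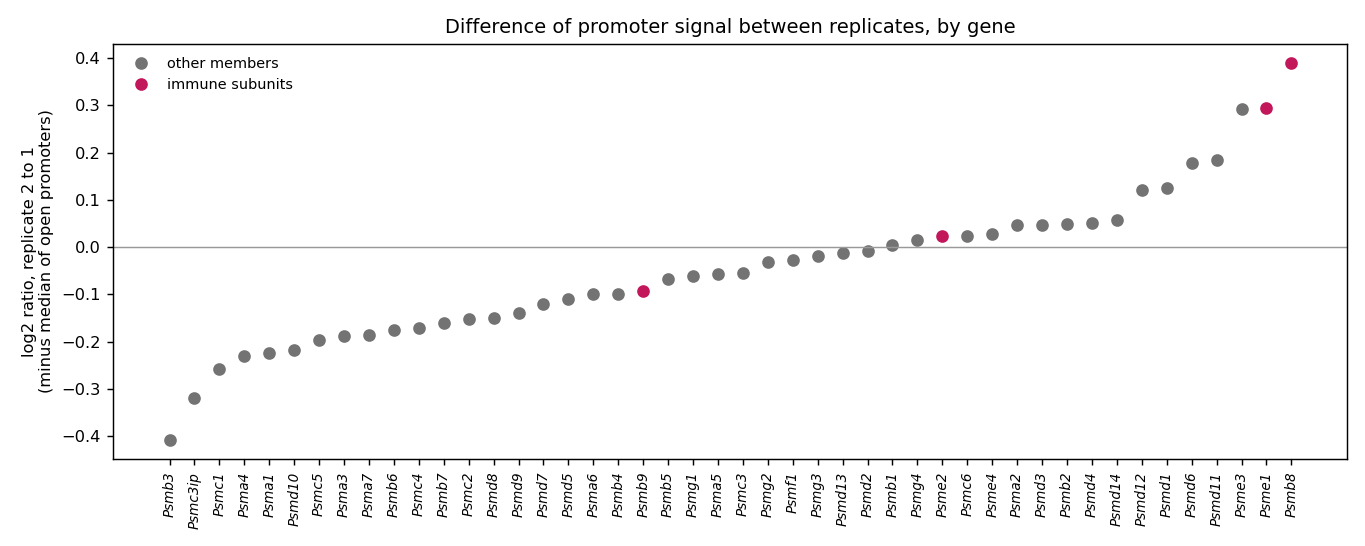
Log2 ratio of the promoter signal of replicate 2 to replicate 1 for the 46 open members (x axis, ordered by value), minus the median ratio of all open promoters; immune genes are coloured. Psmb8 and Psme1 are at the high end with 0.39 and 0.29, Psmb9 and Psme2 are near 0, and Psmb3 is at the low end with -0.41.

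Other genes of the ubiquitin-proteasome pathway were open without exception among those in the annotation. All 27 had a shared site, with medians of 12.4 and 10.8, and 22 lay above the median of open promoters. Nfe2l1 had 22.5 and 17.1. Vcp, the ATPase that extracts ubiquitinated proteins from complexes, had 23.1 and 20.9, and the ubiquitin gene Ubb had 28.9 and 20.8. Of the subunits with other symbols, the receptor Adrm1 had 17.8 and 14.2 and the small lid protein Sem1 had 8.08 and 6.55. Pomp, the maturation factor of the core particle, had 7.78 and 7.87. The ETS motif was in 3 of the 27 windows (11.1%).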

How the data were processed

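Deposited files gave, for each of the 2 libraries, strict and permissive peak lists, a footprint list and per-base values on mm10. The peak value is the authors' signal, of unstated scaling. Footprints carry the authors' false discovery rate level of 0.01, and q-values per base for the local cut rate were deposited where below 0.05. Replicates were not pooled. How reads of the F1 cross were aligned and peaks called is not given in the sources used here.

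Strict peaks that overlapped by at least 1 bp were merged, and sites with a peak of each replicate were kept (68349). Starts were those of coding transcripts. The reference start is that of the principal transcript. Of 21911 protein-coding symbols, 82 without a coding start were left out, and 6 of the 13655 open promoters lacked a promoter peak in a replicate and have no signal there. A shared footprint (a footprint of both replicates) is a merged stretch of overlapping footprints of both that overlaps the site, and a motif match was counted in it if it overlapped it; capitals in printed sites mark bases covered in each replicate. Sequences came from GRCm38 and RefSeq starts from its promoter table, which held 42 members. The lists of paired genes, roles, pathway and markers and the 16 motifs were set by hand. Members and lists were chosen with earlier results of these data known. Named were the highest and lowest genes of each role, all catalytic, activator and tissue-restricted genes, those without a site, and the extremes of each measure. Psmb1, Psmc6, Psmd4, Psmd5, Psmd14, Psmg4 and the intronic site of Psmb10 were added after their values were seen. Interval code was checked on simulated peaks. With 1 group of 2 libraries no test was made. Python 3.11.15 with numpy 2.4.6, pandas 2.3.3, scipy 1.17.1 and matplotlib 3.10.9 was used. The alternatives tried are given in the closing section.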

Additional observations from a re-analysis of the deposited data

How the results depend on the processing

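Of 63 alternatives to the results of the design, 53 stayed within the spread of the replicates, or within 1.5 times for a count. The number of members with a shared promoter site was 46 or 47 under all of them, as was the number with a shared footprint in it; Psma8 was gained with the permissive list, and Psmb10 with a window of 2500 bp or the starts of all transcripts. Summing over all promoter peaks moved the median signal from 11.2 to 13.3 and the log2 ratio of Psmb6 to Psmb9 from -0.80 to -1.06. The difference of core and immune genes moved from 0.27 to 0.68 with the window of 2500 bp and to 0.68 with all transcript starts, because Psmb10 then had a value. The median of distal sites moved from 0 to 1 with the permissive list. Bases of low false discovery rate moved from 708.2 to 659.5 under a stricter limit and to 830.5 within 1000 bp of the start. Without replicate 1 or replicate 2 the ranges were 46 to 46 members with a site, 46 to 46 with a footprint, 10.2 to 12.4 for the median signal, 0.11 to 0.43 for core minus immune genes, -0.36 to 0.10 for Psmb5 over Psmb8, -0.84 to -0.76 for Psmb6 over Psmb9, 1 to 1 distal sites and 704.5 to 707.5 bases. The ratio of Psmb7 to Psmb10 exists only with the wider window or all transcript starts, at 0.48. Of 14 motifs found in a member, 9 changed their count by more than 1.5 times in a longer or site-centred window, and ETS did not. A neighbour on the other strand was present at 10 members, 13 with the starts of all genes and 9 within 500 bp. No paired analysis was possible because there is 1 group. The unstated scaling of the signal and unknown read totals limit comparisons between the libraries, and 2 libraries limit every statement on spread.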
